A study of Mus musculus with 96 samples.

Results

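The proteasome subunit family comprised the protein-coding genes whose symbol in GENCODE M21 is Psma, Psmb, Psmc, Psmd, Psme, Psmf or Psmg followed by a digit. Of the 49 genes the rule gave, 48 were among the 19918 genes of the count tables, and Psmb11, the thymus-specific beta subunit, was not measured here. Psmb8, Psmb9 and Psmb10 formed the immunoproteasome set of 3. The genes were measured by bulk RNA sequencing of polyadenylated RNA in tissue punches of the nucleus accumbens (NAc) and the prefrontal cortex (PFC) of the same 48 mice, 96 libraries in all. The mice were FCG mice, a model in which the testis-determining gene Sry is missing from the Y chromosome (written Y-) and is supplied, where present, by an autosomal transgene. XX mice have ovaries, XXSry mice testes, XY- mice ovaries and XY-Sry mice testes. They were stressed by subchronic variable stress, which was restraint for 1 hour in each of 3 sessions spread over 6 days, or were left unstressed as controls. From 3 cohorts, each genotype had 6 stressed animals. Controls were 5 XX, 6 XXSry, 7 XY- and 6 XY-Sry animals. Treatment was unevenly spread over cohorts: 12 stressed and 11 control animals in cohort 1, 2 and 10 in cohort 2, and 10 and 3 in cohort 3, which held no XX or XXSry control. Every mouse with testes carries the transgene, so gonads and the transgene cannot be told apart, and the labels name neither strain background nor age. The comparisons ask how chromosome complement, gonads, stress and brain region each relate to expression.

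The proteasome is the protease that degrades most ubiquitin-tagged proteins. Its barrel-shaped core is built of rings of alpha (Psma) and beta (Psmb) subunits, and Psmb5, Psmb6 and Psmb7 encode the beta subunits that cut peptide bonds. A regulatory particle binds to the end of the barrel, where ATPases (Psmc) unfold substrates and the remaining subunits (Psmd) recognise and remove ubiquitin. In immune cells and under interferon, Psmb8, Psmb9 and Psmb10 replace the catalytic Psmb5, Psmb6 and Psmb7, which changes the peptides offered to class I antigen presentation. Psme1 and Psme2 encode the alternative activator PA28, also inducible by interferon gamma. In the brain the immunoproteasome is best known from microglia.

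Sequences around the start sites of the immunoproteasome genes and Psme1 are shown because these genes are described together as interferon-inducible. They come from RefSeq on GRCm38.p6, from 250 bases before to 50 bases after the annotated start, 300 bases each, 5′ to 3′ on the gene's strand. Psmb8 is on the plus strand at chr17:34197945-34198244, Psmb9 on the minus strand at chr17:34187281-34187580, Psmb10 on the minus strand at chr8:105938343-105938642 and Psme1 on the plus strand at chr14:55578244-55578543. Capitals mark matches on either strand to the interferon-gamma-activated site, TTCNNNGAA, or to the core of the interferon-stimulated response element, which is GAAA, any 2 bases and GAAA again. The 4 windows lie at least partly inside the longer GENCODE gene models.
Psmb8: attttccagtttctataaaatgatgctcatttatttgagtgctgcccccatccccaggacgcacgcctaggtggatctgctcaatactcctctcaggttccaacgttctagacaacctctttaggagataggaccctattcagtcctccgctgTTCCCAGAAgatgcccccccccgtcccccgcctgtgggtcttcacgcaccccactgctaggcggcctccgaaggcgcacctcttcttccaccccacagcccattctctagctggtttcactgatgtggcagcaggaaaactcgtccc
Psmb9: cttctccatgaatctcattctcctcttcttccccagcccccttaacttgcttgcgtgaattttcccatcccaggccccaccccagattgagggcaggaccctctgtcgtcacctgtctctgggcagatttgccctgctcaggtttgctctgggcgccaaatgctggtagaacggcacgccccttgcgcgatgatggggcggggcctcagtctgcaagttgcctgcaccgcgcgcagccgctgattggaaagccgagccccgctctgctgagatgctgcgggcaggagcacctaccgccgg
Psmb10: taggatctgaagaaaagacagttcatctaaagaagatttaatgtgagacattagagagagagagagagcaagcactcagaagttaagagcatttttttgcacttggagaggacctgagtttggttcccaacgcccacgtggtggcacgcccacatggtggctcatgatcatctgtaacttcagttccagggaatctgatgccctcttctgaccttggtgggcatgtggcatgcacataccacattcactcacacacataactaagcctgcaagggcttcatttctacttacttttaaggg
Psme1: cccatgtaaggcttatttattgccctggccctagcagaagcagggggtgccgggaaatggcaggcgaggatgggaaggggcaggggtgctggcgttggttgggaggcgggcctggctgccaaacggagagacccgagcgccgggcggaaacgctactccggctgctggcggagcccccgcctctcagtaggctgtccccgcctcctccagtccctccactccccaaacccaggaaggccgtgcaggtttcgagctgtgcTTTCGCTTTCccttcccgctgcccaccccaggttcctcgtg

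Psmb8 held 1 match to the interferon-gamma-activated site, TTCCCAGAA, and Psme1 held 1 to the response element core, TTTCGCTTTC. The Psmb8 match lay from base -97 to -89, before the annotated start, and the Psme1 match from base 10 to 19, after it. Psmb9 and Psmb10 held neither motif in this window. Of the 40 members with a promoter entry, 3 held the activated site (Psmb8, Psmd2 and Psmg1), against 8.30% of all 32851 promoters of this length. The response element core was in 5 of the 40 (Psmb3, Psmd4, Psmd9, Psme1 and Psmg4), against 3.44% of all promoters. A member counted if any of its promoter entries matched, while the percentages are over all entries, so these are not like measures. The counts describe letters only.

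The ordinary 26S proteasome was expressed in every library at levels that far exceeded those of Psmb8 and Psmb9. Levels are given as CPM, in which each count is divided by the size of its library, and between genes as CPM per kilobase of merged exons, since longer genes collect more reads. In the NAc the 31 constitutive subunits of the core and the regulatory particle ran from 9.12 to 65.5 CPM per kb with a median of 24.4, and in the PFC from 9.18 to 96.7 with a median of 26.7. The ATPase gene Psmc5 was the highest member in both regions on this scale, with 65.5 CPM per kb in the NAc and 96.7 CPM per kb in the PFC. Per length of the principal transcript it was again the highest in the PFC (102.5 CPM per kb), but in the NAc it had 69.3, against 71.8 for Psmb7 and 71.0 for Psma6. On merged exons, Psmb8 stood at 0.516 CPM per kb in the NAc and 0.652 in the PFC, and Psmb9 at 0.211 CPM per kb in the NAc and 0.240 in the PFC, so both lay below all 31. Psmb10 was different, at 4.78 CPM per kb in the NAc and 11.1 in the PFC, where it came within the range of the constitutive subunits. That did not hold with the principal transcript, where Psmb10 had 14.4 CPM per kb in the PFC and the lowest constitutive subunit 20.6. Psma8, the testis-specific alpha subunit, was the lowest member, at 0.0808 CPM per kb in the NAc and 0.0962 in the PFC.

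**Figure D1:**
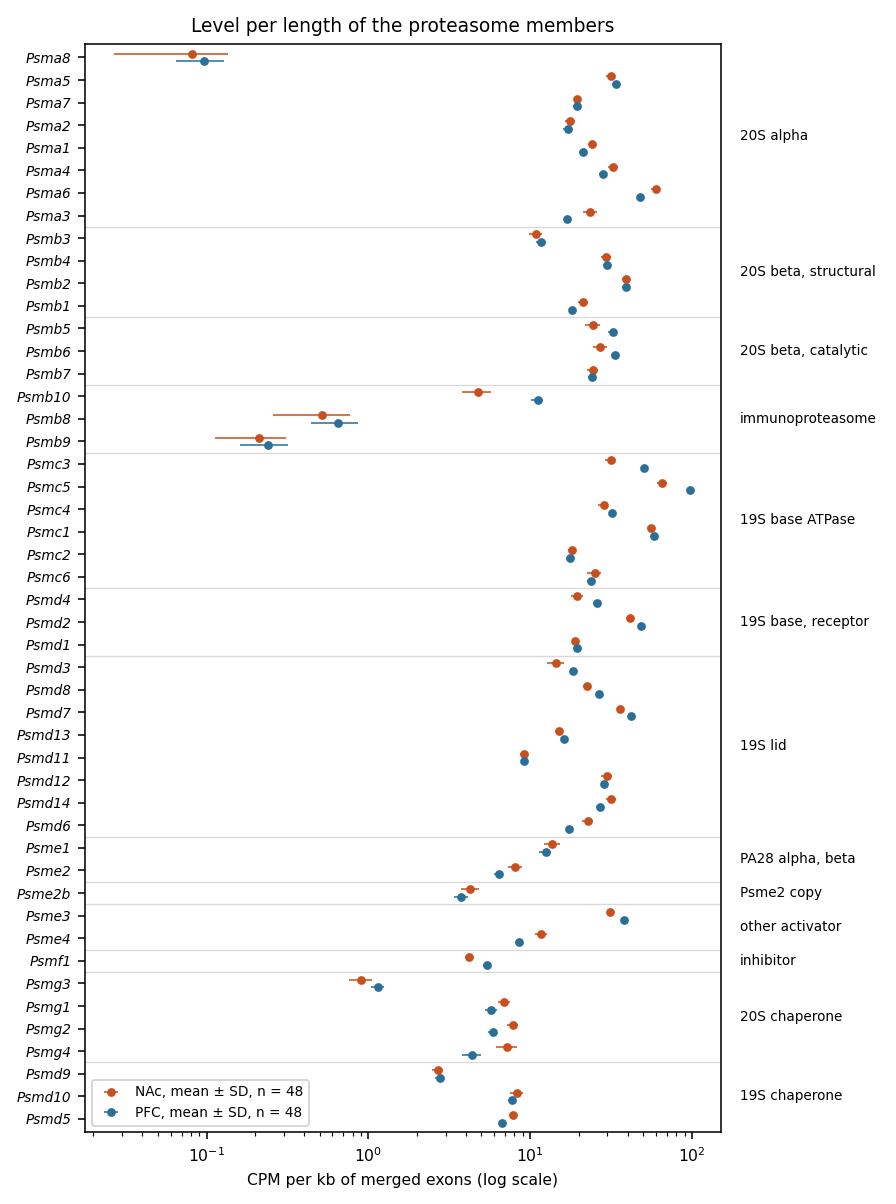
Level of each of the 48 members in CPM per kb of merged exons (log scale) in the NAc (orange) and the PFC (blue), as mean ± SD over 48 libraries, grouped by role. Psma8, Psmb8 and Psmb9 lie below 1 CPM per kb in both regions.

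Each immunoproteasome subunit was set against the constitutive subunit it replaces. Psmb8 reached 2.12 ± 1.06% of the Psmb5 level per length in the NAc and 2.02 ± 0.702% in the PFC (SD, n = 48 each). Psmb9 reached 0.779 ± 0.369% of Psmb6 in the NAc and 0.719 ± 0.241% in the PFC. Psmb10 reached 19.6 ± 3.85% of Psmb7 in the NAc and 46.4 ± 4.01% in the PFC. With the length of the principal transcript in place of merged exons, the Psmb8 share was 4.41% in the NAc and 4.19% in the PFC, and the Psmb10 share 8.66% in the NAc and 20.4% in the PFC. The size of a share therefore depends on the length used, while the Psmb9 share was 0.899% in the NAc and 0.829% in the PFC with the principal transcript. In bulk tissue, fewer cells of a type and less RNA per cell cannot be told apart.

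Region was the factor with which members differed most often. In 1 fit over both regions with the animal as a block, 39 of the 48 members differed between NAc and PFC, 16 higher and 23 lower in the NAc (edgeR, adjusted p below 0.05). Of all 19918 genes 85.9% were called in this comparison, 44% higher and 41.9% lower, so the members' share was near the background. Their median absolute log2 fold change was 0.22, against 0.41 over all genes, and their median log2 fold change was -0.02, against 0.02 over all genes. Libraries of the regions did not overlap for 6 members (Psmb10, Psmc3, Psmc5, Psmf1, Psme3 and Psme4), against 16.4% of all genes. All values of this comparison are on 1 scale over both regions.

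All 3 immunoproteasome genes were called lower in the NAc than in the PFC, Psmb9 by the narrowest margin. Psmb10 ran from 5.45 CPM through a median of 7.81 to 13.9 CPM in NAc libraries, against 15.4, 18.96 and 22.2 CPM for the lowest, median and highest PFC libraries. Every animal had less Psmb10 in its NAc than in its PFC, and the log2 fold change of -1.24 (SE 0.037, adjusted p = 5.2e-32 in edgeR) was the lowest of all members. Psmb8 ran from 0.792 through 1.52 to 5.33 CPM in the NAc, against 1.28, 2.11 and 5.94 CPM in the PFC. The regions overlapped, 39 of 48 animals had less in the NAc, and the log2 fold change was -0.41 (SE 0.074, adjusted p = 1.94e-06 in edgeR). Psmb9 was lower in the NAc of 33 of 48 animals (log2 fold change -0.24, SE 0.088, adjusted p = 0.0112 in edgeR), a call lost without the animal block (adjusted p = 0.0659 in edgeR) and in 12 of 48 limma-voom fits that each left out 1 animal (log2 fold changes from -0.23 to -0.15 over the 48). Of the 14 microglia markers measured, 3 were higher and 10 lower in the NAc, with a median log2 fold change of -0.16. Their summed level ran from 334.5 to 644.8 CPM in NAc libraries and from 393.2 to 652.5 CPM in PFC libraries. Called lower as well were 7 of 8 meningeal and fibroblast markers (median -1.45) and 4 of 6 blood and choroid plexus markers (-0.56). The same held for 5 of 8 astrocyte markers (-0.29) and 5 of 8 endothelial markers (-0.25). Of 25 interferon-response genes 12 were higher and 6 lower (median 0.14). The counts of these lists are to be read against the 44% of all genes called higher and the 41.9% called lower here. Of 11 class I antigen processing genes 4 were higher and 6 lower (-0.07), and all 8 oligodendrocyte markers were higher (2.43). The summed meningeal and fibroblast level ran from 74.4 to 111.8 CPM in NAc libraries and from 91.9 to 240.7 CPM in PFC libraries, and the summed blood and choroid plexus level from 26.9 to 125.7 CPM in NAc libraries and from 41.96 to 335.2 CPM in PFC libraries. The part of these lists in the lower immunoproteasome levels was not tested.

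The catalytic subunits of the constitutive core split. Psmb5, which carries the chymotrypsin-like activity, averaged 21.9 ± 2.35 CPM in the NAc and 29.3 ± 1.84 CPM in the PFC, a log2 fold change of -0.43 (SE 0.025, adjusted p = 1.28e-20 in edgeR). Psmb6, with the caspase-like activity, fell less, by 0.31 on the log2 scale (50.96 ± 4.83 CPM in the NAc and 62.7 ± 3.36 CPM in the PFC). Psmb7, with the trypsin-like activity, had 83.3 ± 6.33 CPM in the NAc and 82.1 ± 4.52 CPM in the PFC and was not called (log2 fold change 0.01, SE 0.020, adjusted p = 0.778 in edgeR). Psmb7 overlaps the opposite-strand gene Nek6, and Psmb5, Psmb6 and Psmb7 have pseudogene copies in the annotation that could share reads. Of the 4 structural beta genes, Psmb1 rose (log2 fold change 0.20), Psmb3 fell by 0.11, and Psmb2 and Psmb4 were not called.

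The other parts of the complex moved in both directions. Among the 8 alpha ring genes 4 rose in the NAc, led by Psma3 with 91.6 ± 8.95 CPM in the NAc and 66.1 ± 3.23 CPM in the PFC (log2 fold change 0.45, SE 0.026). Psma5 and Psma8 fell and 2 were not called. Of the 6 ATPases of the regulatory particle 4 fell and none rose. Psmc3 had 82.6 ± 6.52 CPM in the NAc and 131.4 ± 5.92 CPM in the PFC (log2 fold change -0.67, SE 0.018, adjusted p = 7.17e-34 in edgeR), and Psmc5 had 91.2 ± 6.60 CPM in the NAc and 134.9 ± 4.55 CPM in the PFC (log2 fold change -0.57). For both, the highest NAc library lay below the lowest PFC library. All 3 large base subunits and ubiquitin receptors fell, from -0.04 for Psmd1 to -0.40 for Psmd4. The 8 lid genes split into 2 higher, 4 lower and 2 not called, with Psmd6 at 0.36 and Psmd3 at -0.35. Psma3, Psma6, Psmc3 and Psmd13 overlap measured genes on the opposite strand (Slc39a13 for Psmc3 and Sirt3 for Psmd13), and so do Psmd5 and Psme1. Strand use in counting is not stated, so the counts of these genes are uncertain.

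Activators and assembly chaperones moved in both directions too. Psme4, the nuclear activator PA200, had 98.4 ± 8.36 CPM in the NAc and 71.1 ± 3.72 CPM in the PFC and was higher in the NAc of all 48 animals (log2 fold change 0.46, SE 0.022, adjusted p = 8.7e-24 in edgeR). Psme3, which encodes PA28 gamma, fell by 0.28 on the log2 scale, and Psmf1, the inhibitor PI31, by 0.36. Both interferon-inducible activator genes rose, opposite to the immunoproteasome set: Psme1 by 0.13 and Psme2 by 0.34. Psme2b, a gene whose sequence resembles Psme2, followed at 0.19. Psmg4, a chaperone of core assembly, had 3.99 ± 0.587 CPM in the NAc and 2.44 ± 0.332 CPM in the PFC (log2 fold change 0.71, SE 0.046, adjusted p = 8.42e-19 in edgeR), the highest of all members. Of the other core chaperones, Psmg1 rose by 0.26 and Psmg2 by 0.38, while Psmg3 fell by 0.35. Of the chaperones of the regulatory particle, Psmd5 (0.20) and Psmd10 (0.10) rose and Psmd9 fell (-0.05).

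**Figure D2:**
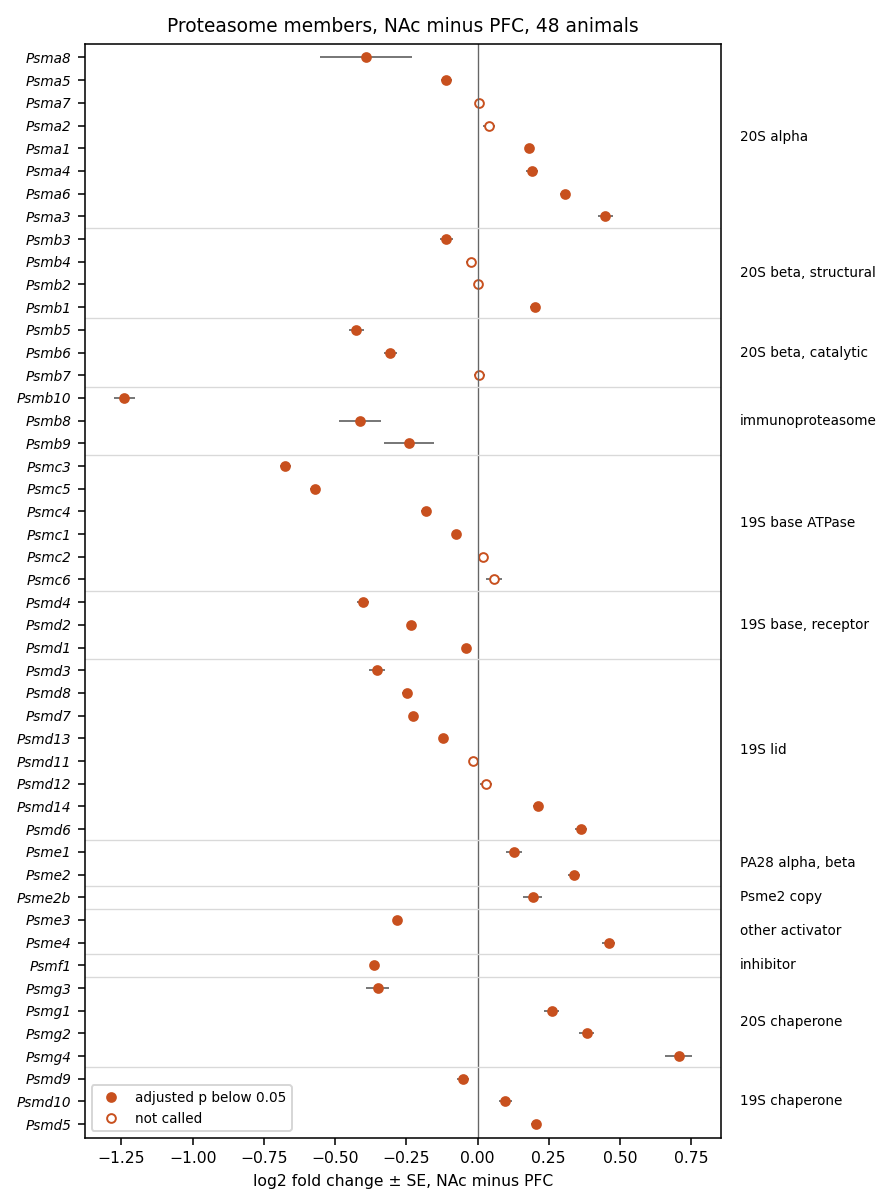
Log2 fold change (NAc minus PFC) of each member with its standard error, from the fit with the animal as a block, grouped by role. Filled points have an adjusted p below 0.05; Psmb10 lies lowest at -1.24 and Psmg4 highest at 0.71.

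Genes that act on the complex from outside the family were called at shares to be read against the 85.9% of all genes called here. Of the 2 measured subunits with other names, Sem1 rose (0.32) and Adrm1 fell (-0.34). Of 11 assembly factors, adaptors and regulators 2 were higher and 7 lower in the NAc, and of 16 genes for ubiquitin supply and substrate delivery 5 were higher and 11 lower. Nfe2l1, the transcription factor known for raising proteasome genes when the protease is impaired, fell by 0.43 on the log2 scale (adjusted p = 7.31e-27 in edgeR), and Nfe2l2, the oxidative stress factor, rose by 0.32. The punches differed as their labels say: all 8 striatal projection neuron markers were higher and all 8 cortical excitatory markers lower in the NAc. The summed cortical excitatory level varied widely over NAc libraries, from 59.1 to 1064.7 CPM, against 2246.5 to 2686.2 CPM in PFC libraries. The 8 oligodendrocyte markers were all higher (median log2 fold change 2.43) and the 8 pan-neuronal markers all lower (median -0.94). The part of this cell makeup in the members' differences was not tested. No member's regional difference depended on stress, chromosomes or gonads at an adjusted p below 0.05 in edgeR, against 0%, 0.0151% and 0% of all genes, and 7, 3 and 1 of the 48 had an unadjusted p below 0.05, against 4.97%, 4.79% and 5.25% of all genes. The members with the smallest p were Psmb2 for stress (log2 difference -0.09, unadjusted p = 0.00407), Psma8 for chromosomes (0.93, unadjusted p = 0.00643) and Psmb8 for gonads (-0.32, unadjusted p = 0.0266), with adjusted p of 0.956, 0.942 and 0.844 in edgeR.

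Chromosome complement was the only factor within a region for which any member was called, and that member was Psmb8 in the NAc. Psmb8 encodes the inducible chymotrypsin-like subunit and is an autosomal gene on chromosome 17 (GRCm38, plus strand, 34197721 to 34201454). In NAc libraries it ran from 0.830 through a median of 1.34 to 2.65 CPM in XX mice, against 1.06, 1.89 and 5.60 CPM for the lowest, median and highest XY mice (XY- and XY-Sry together). The groups overlapped: 8 of 25 XY libraries exceeded the highest XX library, and 21 exceeded the XX median. The mean was 1.41 ± 0.382 CPM over the 23 XX mice, against 2.22 ± 1.09 CPM over the 25 XY mice (SD), a log2 fold change of -0.61 (SE 0.145, adjusted p = 0.0266 in edgeR). It was thus 1 of 48 members, or 2.08%, against 0.584% of the 19684 genes tested. At an unadjusted p below 0.05 there were 3 members, against 5.97% of all genes. Counts of Psmb8 were between 60 and 449 per NAc library. The Psmb8 gene model lies 495 bases from that of Tap1 on the same strand, and Tap1, which encodes a peptide transporter, had a log2 fold change of -0.63 in this comparison. Whether reads of Tap1 were counted for Psmb8 was not tested.

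The call held under most changes of the analysis but not all. Leaving out each of the 48 libraries in turn kept it in 41, and the log2 fold change stayed between -0.65 and -0.47. It was lost without either of 2 XY- controls, numbers 6 and 13, and without XX stress 9, XX control 35, XXSry stress 21, XXSry control 39 or XY-Sry stress 30, with adjusted p from 0.0511 to 0.0673. Within the cohorts the values were -0.49, -0.83 and -0.99 in cohorts 1, 2 and 3, all in the same direction and none called (edgeR adjusted p 0.158, 1.00 and 0.544). Cohort 3 held no XX or XXSry control, so its XX mice were all stressed. DESeq2 called Psmb8 over all libraries with an adjusted p of 0.00425. Among mice with ovaries the log2 fold change was -0.77 (XX minus XY-, adjusted p = 0.0623 in edgeR, where 0.533% of all genes were called), and among mice with testes -0.44 (XXSry minus XY-Sry, adjusted p = 1.00). The difference between these values did not pass the threshold (interaction 0.33, SE 0.288, edgeR unadjusted p = 0.262).

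In the PFC Psmb8 did not pass the threshold. It ran from 1.23 through 1.81 to 2.38 CPM in XX mice, against 1.51, 2.22 and 5.70 CPM in XY mice. Here 9 of 25 XY libraries exceeded the highest XX library and 21 the XX median. The mean was 1.81 ± 0.293 CPM over the XX mice, against 2.36 ± 0.808 CPM over the XY mice (SD), a log2 fold change of -0.34 (SE 0.097, adjusted p = 0.0672 in edgeR). No member was called by edgeR in this comparison, against 1.12% of 19292 genes, and 5 members had an unadjusted p below 0.05, against 11.6% of all genes. DESeq2 called 1, Psmb8, with an adjusted p of 0.0307, and so did edgeR without the cohort term (0.0247). Cohorts 1, 2 and 3 gave -0.39, -0.11 and -0.72, and the XX mice of cohort 3 were again all stressed. The NAc value differed from the PFC value by -0.23 on the log2 scale in the fit over both regions (SE 0.145, adjusted p = 0.942 in edgeR). The next smallest p in the PFC was that of Psme2b (log2 fold change -0.12, edgeR unadjusted p = 0.0108).

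The other members of the immunoproteasome set and PA28 were not called for chromosomes. Psmb9, the inducible counterpart of Psmb6, averaged 0.692 ± 0.221 CPM in XX and 0.924 ± 0.458 CPM in XY mice in the NAc. Its log2 fold change there was -0.38 (SE 0.172, adjusted p = 0.757 in edgeR). In the PFC it averaged 0.777 ± 0.157 CPM in XX and 0.892 ± 0.346 CPM in XY mice (log2 fold change -0.19, adjusted p = 0.509 in edgeR). Psmb9 overlaps the peptide transporter gene Tap1 on the opposite strand and lies 9956 bases from Psmb8, so its counts are uncertain. Psmb10, the inducible trypsin-like subunit, averaged 8.20 ± 1.60 CPM in XX and 8.89 ± 1.81 CPM in XY mice in the NAc (log2 fold change -0.09), and 18.02 ± 1.48 CPM in XX and 18.04 ± 1.54 CPM in XY mice in the PFC (0.01). Psme1 had log2 fold changes of -0.07 in the NAc and -0.06 in the PFC, and Psme2 of -0.09 and -0.03, none called.

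**Figure D3:**
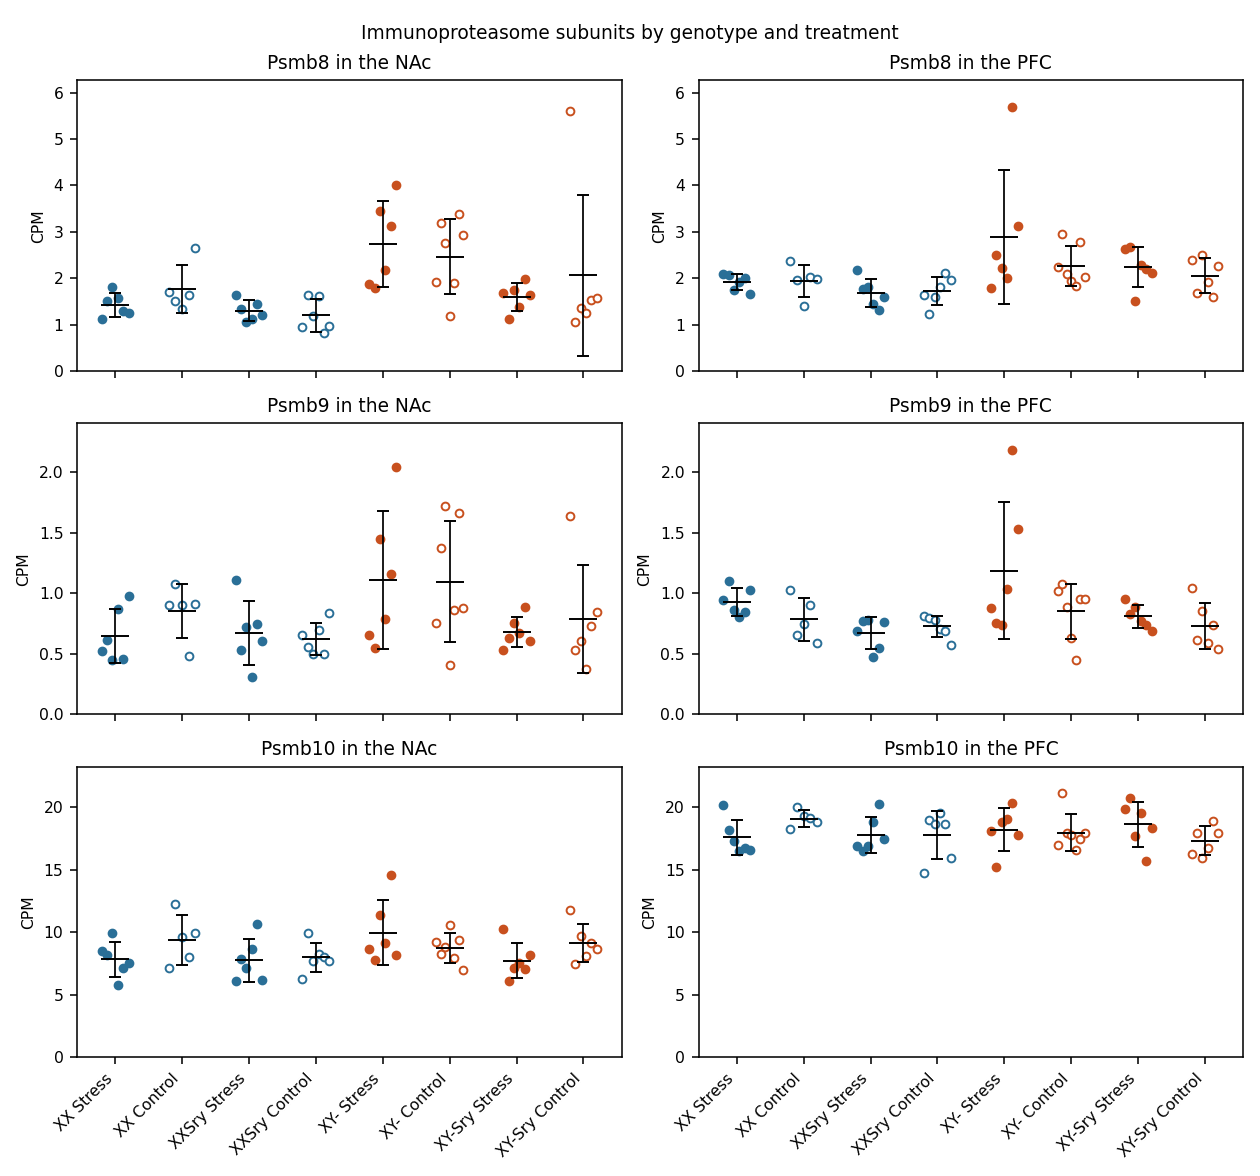
CPM of Psmb8, Psmb9 and Psmb10 in each library of the NAc (left) and the PFC (right) by genotype and treatment; blue marks XX, orange XY, filled stress, open control, and bars mean ± SD (n = 5 to 7). The highest Psmb8 libraries, 5.60 CPM in the NAc and 5.70 CPM in the PFC, belong to XY mice.

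The constitutive proteasome stayed close to 0 in the same comparison. The log2 fold changes of its 31 subunits ran from -0.06 to 0.05 in the NAc and from -0.04 to 0.03 in the PFC, with 0 called by edgeR in either region and 0 with an unadjusted p below 0.05. Psmb5, Psmb6 and Psmb7 had 0.01, 0.02 and -0.06 in the NAc and 0.01, -0.04 and 0.00 in the PFC. Over all 48 members the median was -0.03 in the NAc and 0.01 in the PFC, against -0.00 and 0.00 over all genes. Psmd10, the only X-linked member, had log2 fold changes of -0.01 in the NAc and 0.03 in the PFC. Of the 16 genes of ubiquitin supply and delivery, 11 assembly factors, adaptors and regulators, and 6 genes of transcriptional control, 0 were called in either region.

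Some genes of class I antigen presentation and of the interferon response were called lower in the same contrast, in which 0.508% of all genes were called lower in the NAc and 0.845% in the PFC. Of 11 genes of class I antigen processing 4 fell in XX relative to XY mice in the NAc: Tap1 (log2 fold change -0.63), Nlrc5, the activator of class I genes (-1.01), H2-D1 (-0.55) and B2m (-0.51). In the PFC 4 fell as well (H2-K1, H2-D1, Nlrc5 and Tapbp). The other 7 class I genes of each region were not called, and 1 of the 11 in the NAc and 3 in the PFC lay above 0. Of 25 interferon-response genes 18 fell in the NAc and 12 in the PFC, with median log2 fold changes of -0.92 and -0.52, and none rose. Their summed level ran from 93.0 to 162.1 CPM in XX and from 96.2 to 394.9 CPM in XY mice in the NAc, and from 96.6 to 124.0 CPM in XX and from 105.5 to 376.2 CPM in XY mice in the PFC. Of 14 microglia markers 0 were called in the NAc (median -0.08) and 2 fell in the PFC (median -0.09). Their summed level ran from 369.1 to 475.3 CPM in XX and from 334.5 to 644.8 CPM in XY mice in the NAc, and from 406.5 to 511.7 CPM in XX and from 393.2 to 652.5 CPM in XY mice in the PFC. In the NAc all 8 striatal projection neuron markers lay above 0 (median 0.11) and 7 of 8 cortical excitatory markers below (median -0.15), none called. In the PFC, 8 of 8 meningeal and fibroblast markers (median -0.19), 5 of 6 blood and choroid plexus markers (median -0.26) and 7 of 8 endothelial markers (median -0.05) lay below 0, none called. Of the pan-neuronal markers 7 of 8 lay above 0 there (median 0.01, none called), and 7 of 8 astrocyte markers lay below (median -0.03). Of the PFC astrocyte and striatal markers 1 each was called lower, Gja1 (log2 fold change -0.10) and Drd2 (-0.65). Of 8 lymphocyte markers 2 were measured, Cd4 and Cd79a, and 0 were called. Cd79a averaged 0.115 CPM in the NAc and 0.166 CPM in the PFC, and Cd4 33.1 CPM and 0.693 CPM. Cd3e, Cd3g and Cd8a were not measured, so these 2 genes cannot settle lymphocyte content. The part of these marker levels in the Psmb8 difference was not tested.

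Over all libraries, Psmb8 and Psmb9 correlated with the interferon-response genes, and within XX libraries alone neither correlation passed after adjustment. Each library's log2 CPM was taken as a deviation from the values fitted for its group and cohort, and set against the deviation of the mean log2 CPM of the 25 interferon-response genes. For Psmb8, Pearson's r was 0.75 in the NAc (Spearman's rho 0.61) and 0.71 in the PFC (rho 0.57), over 48 libraries each, with a permutation p of 1e-05 for each r, the smallest that 100000 draws can give, and 4.29e-05 after adjustment over 30 correlations. The permutation p of rho was 1e-05 in the NAc and 4e-05 in the PFC. Draws shuffled the deviations freely over libraries, whatever their group. The score itself spread less over XX than over XY libraries (SD 0.282 and 0.779 in the NAc), so these p are approximate. Without the 2 libraries farthest from the median score r was 0.63 in the NAc and 0.55 in the PFC. Among XX libraries r was 0.39 in the NAc (n = 23, permutation p = 0.0637, adjusted 0.112) and 0.44 in the PFC (n = 23, permutation p = 0.0343, adjusted 0.0736), and among XY libraries 0.83 and 0.79 (n = 25, permutation p = 1e-05 and 4e-05). For Psmb9 r was 0.69 in the NAc (rho 0.54) and 0.73 in the PFC (rho 0.57), both with a permutation p of 1e-05. Without the 2 farthest libraries these were 0.63 and 0.58. Among XX libraries Psmb9 had r of 0.33 in the NAc and 0.32 in the PFC (n = 23, permutation p = 0.127 and 0.134, adjusted 0.174 for each). Tap1 overlaps Psmb9 and lies 495 bases from Psmb8, and whether its reads entered these correlations was not tested.

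The remaining genes followed the score less closely. For Psmb10 r was 0.28 in the NAc (rho 0.27, permutation p = 0.0548, adjusted 0.103) and 0.18 in the PFC (rho 0.08, permutation p = 0.218, adjusted 0.242). For Psme1 r was 0.38 in the NAc (rho 0.31, permutation p = 0.00796, adjusted 0.0265) and 0.23 in the PFC (rho 0.09, permutation p = 0.124). For Psme2 it was 0.37 in the NAc (rho 0.36, permutation p = 0.00978) and 0.33 in the PFC (rho 0.14, permutation p = 0.0203, adjusted 0.0507). The Psme1 value of the NAc fell to 0.19 and the Psme2 value of the PFC to 0.15 without the 2 farthest libraries, so both rested on those libraries. Of the 8 NAc and 9 PFC XY libraries whose Psmb8 exceeded every XX library, 7 and 8 also exceeded every XX library in interferon-response score. The remaining XY libraries did so in 2 of 17 cases in the NAc and 8 of 16 in the PFC. In the NAc 7 of the 8 were XY- and 1 XY-Sry, and in the PFC 5 of the 9 were XY- and 4 XY-Sry.

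**Figure D4:**
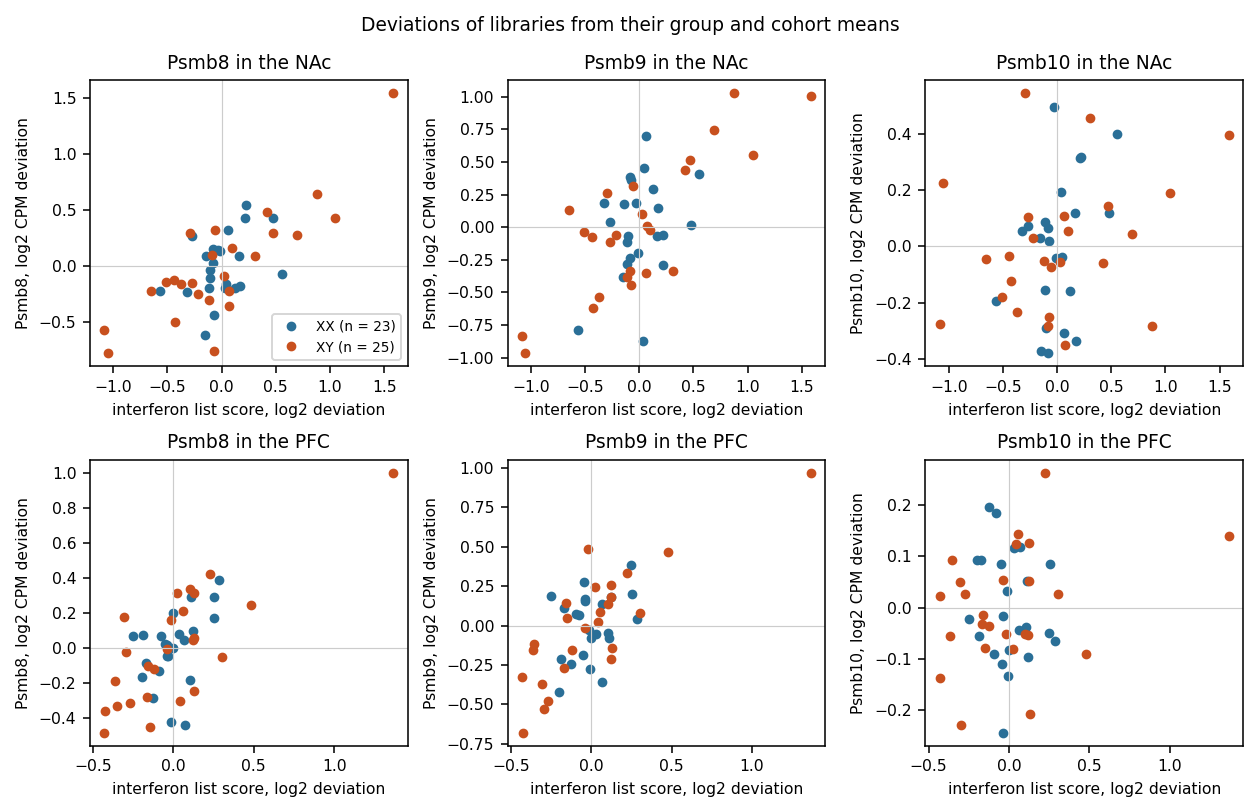
Deviation of each library from its group and cohort values, for the interferon-response score (x axis, log2) and for Psmb8, Psmb9 and Psmb10 (y axes, log2 CPM), with XX in blue (n = 23) and XY in orange (n = 25). Psmb8 and Psmb9 rise with the score (r from 0.69 to 0.75) and Psmb10 less (0.28 in the NAc and 0.18 in the PFC).

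No member was called between mice with testes and mice with ovaries when all libraries were used. The share of all genes called was itself low, 0.0102% in the NAc and 0.0467% in the PFC, and 5 and 4 members had an unadjusted p below 0.05 with edgeR, against 9.28% and 6.74% of all genes, while DESeq2 called 0 in each. Psmb8 in the NAc ran from 0.830 through 1.37 to 5.60 CPM in mice with testes, against 1.13, 1.85 and 4.01 CPM in mice with ovaries. The highest library of all thus had testes, although 19 of 24 ovary libraries exceeded the testes median. The log2 fold change was -0.47 (SE 0.141, edgeR unadjusted p = 0.00159, adjusted p = 0.334). That highest library, XY-Sry control number 33, decided the call: without it Psmb8 was called with a log2 fold change of -0.60 (adjusted p = 0.0029 in edgeR). Its interferon-response score of 3.54 was also the highest of the NAc. Within XY- chromosomes, where 0% of all genes were called, the value was -0.64 (adjusted p = 0.401), and -0.88 without that library (adjusted p = 0.000974), both from edgeR. In the PFC, Psmb8 had a log2 fold change of -0.20 for testes minus ovaries (adjusted p = 0.692 in edgeR).

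Psmb9 had the smallest p for gonads in the PFC. It ran from 0.475 through 0.751 to 1.04 CPM in mice with testes, against 0.451, 0.893 and 2.18 CPM in mice with ovaries. Most libraries overlapped, and 4 of 24 ovary libraries lay above the highest testes library. The log2 fold change was -0.35 (SE 0.106, edgeR unadjusted p = 0.00174, adjusted p = 0.427), and -0.43 in the NAc (adjusted p = 0.492 in edgeR). Psmf1 had the next smallest p in the PFC (log2 fold change 0.06, edgeR unadjusted p = 0.00488). Psmb10 had -0.12 in the NAc and -0.03 in the PFC. The 31 constitutive subunits ran from -0.07 to 0.09 in the NAc and from -0.03 to 0.04 in the PFC. Psmb5, Psmb6 and Psmb7 had -0.06, -0.06 and 0.04 in the NAc and 0.03, 0.00 and 0.00 in the PFC. Psme1 and Psme2 had -0.05 and 0.02 in the NAc and 0.01 and -0.03 in the PFC, none called. All 25 interferon-response genes lay below 0 in both regions, with 0 called and medians of -0.61 in the NAc and -0.22 in the PFC, and their part in these values was not tested. Microglia markers lay below 0 for 12 of 14 in the NAc (median -0.09) and 14 of 14 in the PFC (median -0.08), none called. In the PFC all 8 meningeal and fibroblast markers lay below 0 (median -0.23, none called), and so did all 11 class I genes, of which H2-K1 (-0.41) and H2-D1 (-0.34) were called. Astrocyte markers lay below 0 for 8 of 8 (median -0.06) and blood and choroid plexus markers for 5 of 6 (median -0.23) in the PFC, while 8 of 8 oligodendrocyte (median 0.04) and 8 of 8 pan-neuronal markers (median 0.02) lay above 0, none called. In the NAc 7 of 8 cortical excitatory (median 0.17) and 7 of 8 striatal markers (median 0.07) lay above 0 and 7 of 8 oligodendrocyte markers below (median -0.02), none called. Class I genes lay below 0 there for 9 of 11 (median -0.28) and astrocyte markers for 6 of 8 (median -0.09), none called. The part of these lists was not tested either.

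Stress left no member called in either region. Over all genes edgeR called 0% in each region as well. Of the 48 members 3 in the NAc and 2 in the PFC had an unadjusted p below 0.05 with edgeR, against 4.59% and 5.73% of all genes, and DESeq2 called 0 members in each. In the NAc the smallest p belonged to the lid subunit gene Psmd8 (log2 fold change -0.08, SE 0.028, unadjusted p = 0.00649) and the beta subunit gene Psmb2 (-0.07, SE 0.029, unadjusted p = 0.0221), with an edgeR adjusted p of 0.997 for each. In the PFC they were Psme3 (0.04, SE 0.017, unadjusted p = 0.0285) and Psma7 (0.04, SE 0.020, unadjusted p = 0.0334), with edgeR adjusted p of 0.798 and 0.827. The 31 constitutive subunits lay between -0.08 and 0.03 in the NAc and between -0.02 and 0.04 in the PFC. Medians over the 48 members were -0.03 in the NAc and 0.01 in the PFC. In the PFC 20 of 25 interferon-response genes (median 0.06) and 15 of 16 ubiquitin genes (0.02) lay above 0, none called. So did all 8 oligodendrocyte (0.13) and 8 pan-neuronal markers (0.03). All 8 astrocyte (-0.06), 8 endothelial (-0.08) and 12 of 14 microglia markers (-0.03) lay below. In the NAc 12 of 25 interferon-response genes (-0.03) and all 8 oligodendrocyte markers (0.13) lay above 0. The part of these lists was not tested.

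The immunoproteasome genes overlapped widely between stressed and control mice. Psmb8 ran from 1.05 through 1.61 to 4.01 CPM in stressed and from 0.830 through 1.59 to 5.60 CPM in control mice in the NAc (log2 fold change 0.07, SE 0.162). In the PFC it ran from 1.32 through 2.04 to 5.70 CPM in stressed and from 1.23 through 1.98 to 2.95 CPM in control mice (0.05, SE 0.107). Psmb9 had 0.01 (SE 0.186) in the NAc and 0.22 (SE 0.120) in the PFC, and Psmb10 -0.13 (SE 0.085) in the NAc and -0.00 (SE 0.039) in the PFC. Psmb5, Psmb6 and Psmb7 had -0.03, -0.06 and -0.06 in the NAc and -0.00, 0.02 and 0.00 in the PFC. Psme1 had -0.09 in the NAc and 0.02 in the PFC, and Psme2 0.04 and -0.05. The cohorts differed in sign. For Psmb8, cohorts 1, 2 and 3 gave 0.00, -0.53 and 0.77 in the NAc and -0.03, -0.39 and 0.70 in the PFC. For Psmb9 they gave -0.30, 0.05 and 1.05 in the NAc and -0.06, 0.30 and 1.02 in the PFC. None was called within a cohort (lowest adjusted p 0.212 in edgeR, Psmb9 in the PFC of cohort 3), and cohort 2 had 2 stressed and cohort 3 had 3 control animals. Those 3 controls were XY- or XY-Sry, so cohort 3 set no stressed XX or XXSry mouse against a control of its chromosomes. Within genotypes, stress gave 0 called members in each of the 4 genotypes of both regions with edgeR and with DESeq2. Over all genes edgeR called 0% in each as well. With edgeR 2, 0, 3 and 1 of the 48 members had an unadjusted p below 0.05 in the NAc of XX, XXSry, XY- and XY-Sry mice, against 3.84%, 2.49%, 4.45% and 6.2% of all genes. In the PFC of the same genotypes these were 1, 5, 6 and 3 members, against 3.02%, 5.8%, 9.13% and 6.3%. The smallest p among them was that of Psmb6 in the PFC of XY-Sry mice (log2 fold change 0.12, SE 0.036, unadjusted p = 0.00176, adjusted p = 0.739 in edgeR). Psmb9 in the PFC of XY- mice had a log2 fold change of 0.52 (SE 0.206, adjusted p = 0.414 in edgeR), where 1 stressed mouse, number 32, had the highest library at 2.18 CPM. The interactions of stress with chromosomes, of stress with gonads and of chromosomes with gonads gave 0 called members in both regions with edgeR and DESeq2, and 0% of all genes with edgeR. In that order 2, 0 and 2 members had an unadjusted p below 0.05 in the NAc, against 3.02%, 2.94% and 2.84% of all genes, and 2, 6 and 0 in the PFC, against 3.14%, 6.72% and 4.35%. The smallest p among them was that of Psmc5 in the PFC for stress by gonads (0.08, SE 0.028, edgeR unadjusted p = 0.004, adjusted p = 0.617).

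**Figure D5:**
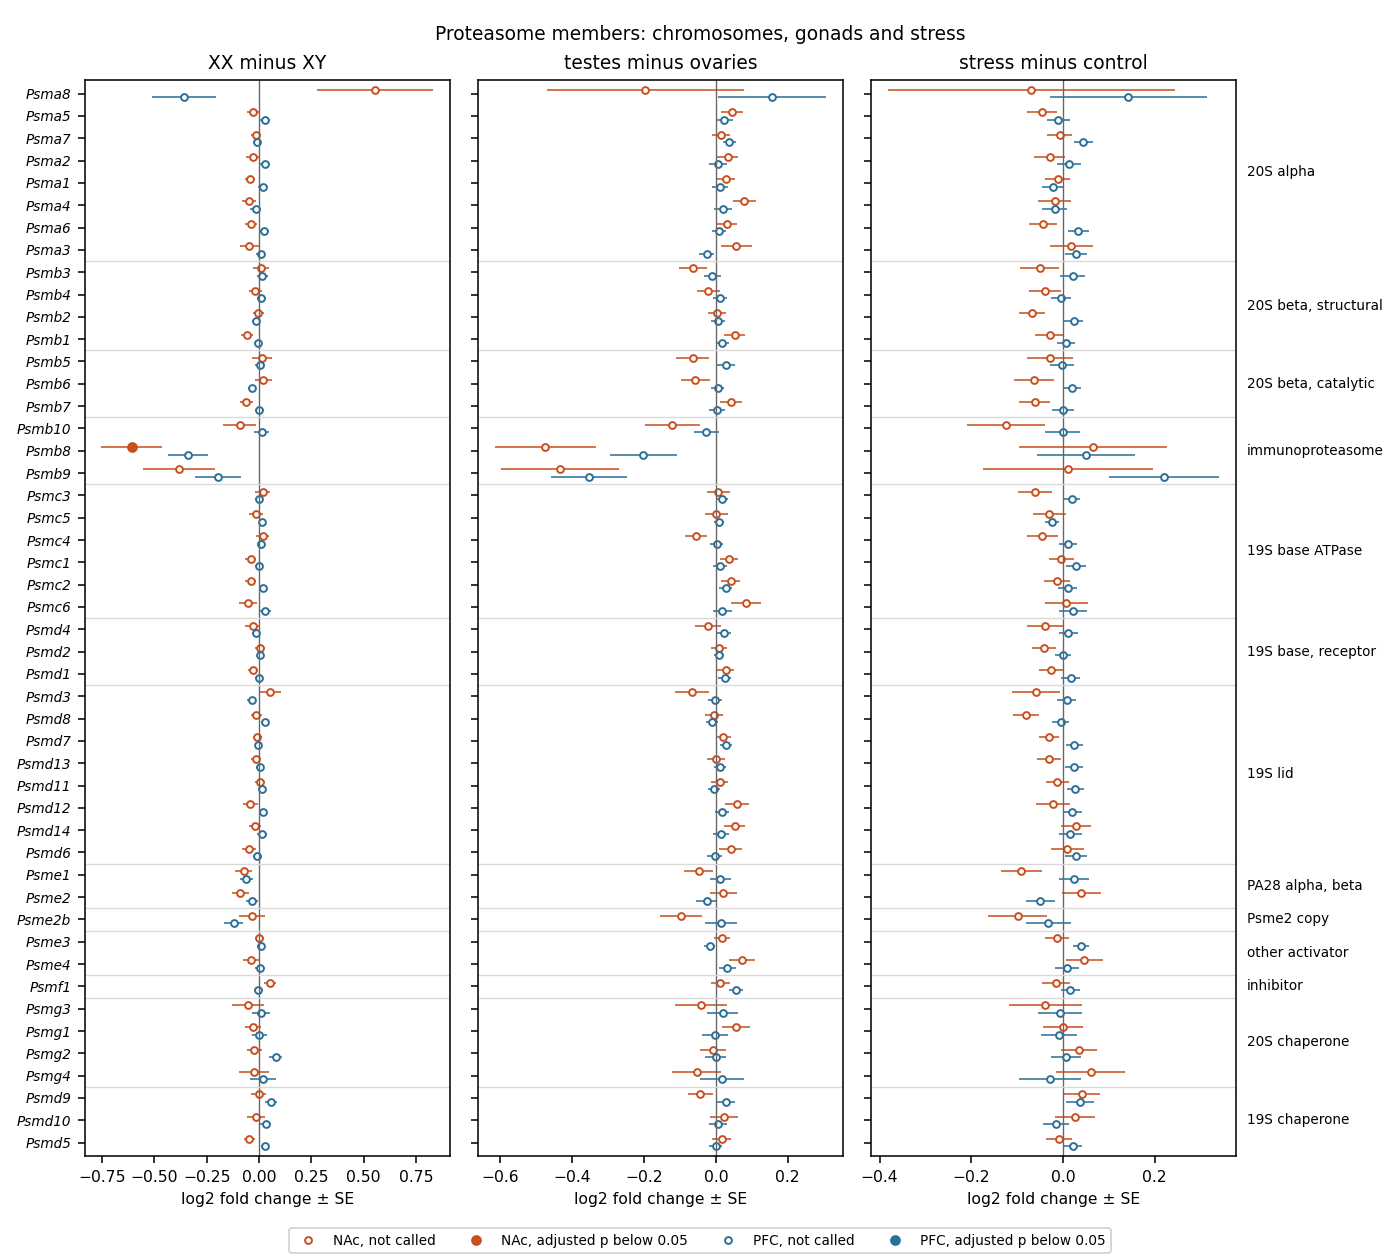
Log2 fold change ± SE of the 48 members for XX minus XY, testes minus ovaries and stress minus control, in the NAc (orange) and the PFC (blue), grouped by role. Filled points have an adjusted p below 0.05; only Psmb8 in the NAc, at -0.61 for XX minus XY, is filled.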

How the data were processed

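The deposited values are raw counts per gene, 1 table per region, as deposited by the authors. The tools named per the submitters' processing notes were HISAT2 2.2.0, Trimmomatic 0.38, FastQC 0.11.9, DESeq2 and edgeR, and the build GRCm38 (mm10). Which program counted reads, with which annotation and strand setting, is not given in the sources used here. No per-sample column was left unused (0). GENCODE M21 named 19795 of 19918 gene IDs, and 5 symbols that matched the pattern were excluded (4 pseudogenes and Psmc3ip). Of the 48 members 8 overlap a measured gene on the opposite strand. Total counts per library ran from 45890551 to 120798601 in the NAc and from 67551546 to 104387920 in the PFC. The labels name a separate animal for each library of a region. Over 121 pairs of libraries of 1 group per region, the lowest chi-square divided by its degrees of freedom was 14.3 (NAc) and 6.60 (PFC), so none matched within sampling noise.

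Each region was tested with edgeR 4.0.16 in R 4.3.3 (quasi-likelihood, robust, TMM, filterByExpr by group), with 8 group means and the cohort, groups weighted equally. XX minus XY compares XX and XXSry with XY- and XY-Sry. This left 19684 genes in the NAc and 19292 in the PFC, all 48 members among them. Regions were compared in 1 edgeR fit of 96 libraries over 19918 genes. The replicate block was the animal, since the animal number in the titles is shared. The pairing was checked over 14679 genes: the median correlation of an animal's deviations was 0.0834, 20 of 48 animals exceeded 0.1 and 9 correlated best with their own number. Adjusted p are Benjamini-Hochberg over all genes, and below 0.05 is called. CPM use TMM library sizes, per region within a region and over both regions for regional, per-length and summed list levels. Correlations used log2(CPM + 0.1) with 100000 permutations (scipy 1.17.1), two-sided. Scripts were tested on simulated data with known changes. DESeq2 1.42.0 and limma 3.58.1 served as alternatives, besides RLE scaling, no and stricter filters (mean of at least 1 CPM), no cohort term, an additive model, single cohorts and leaving out libraries.

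Members and lists were chosen with earlier results of these data known. Named in each main comparison are Psmb5 to Psmb10, Psme1, Psme2 and all called members up to 10, otherwise the 5 highest and 5 lowest called, or the 2 smallest p where none was called; the remaining members of a role class named in the regional comparison, Psmd10, Psme2b and Psma8 were added after their values were seen. Of other lists up to 4 genes with the smallest p are named.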

Additional observations from a re-analysis of the deposited data

Results flagged for a closer look

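Each of Psmb8, Psmb9, Psmb10, Psme1 and Psme2 was looked at for a library far from the rest of its group of 5 to 7, in 80 groups. In 6 of them 1 library stood apart by a gap that exceeded the critical share of the group's range (Dixon's 95% value), where chance flags about 1 in 20 groups. XY-Sry control number 33 had the highest NAc value of 3 genes in its group: Psmb8 at 5.60 CPM (next highest 1.57), Psmb9 at 1.63 CPM (next 0.845) and Psme1 at 39.1 CPM (next 32.8). The PFC library of the same animal had 2.39 CPM of Psmb8. XY- stress number 32 had 5.70 CPM of Psmb8 in the PFC (next 3.13), and its own NAc library had 3.13 CPM. XX control number 50 had 2.65 CPM of Psmb8 in the NAc (next 1.70). XY- control number 6 had 21.1 CPM of Psmb10 in the PFC (next 17.9). Libraries 33 and 32 also had the highest interferon-response scores of their regions, 3.54 in the NAc and 3.44 in the PFC. The same 2 libraries had the highest summed microglia markers of their regions, 644.8 CPM in the NAc and 652.5 CPM in the PFC, and number 6 had the next highest of the PFC at 547.8 CPM.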

How the results depend on the processing

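Psmb8 and Psmb9 had as few as 60 and 23 counts in a NAc library, which limits their precision. For XX minus XY in the NAc, 1 member was called in the main analysis, 0 within each of cohorts 1, 2 and 3, and from 0 to 1 when a library was left out. In the PFC the count was 0, but 1 with DESeq2, 1 without the cohort term and from 0 to 1 when a library was left out (1 without animal 4, 14, 23, 26 or 31). For XX minus XY- with ovaries in the NAc it was 0, but 1 with DESeq2 and from 0 to 1 without single libraries (1 without animal 14, 15, 16, 18, 31, 33, 37 or 50). For testes minus ovaries in the NAc, over both chromosome complements and within XY-, it was 0, and from 0 to 1 without single libraries (1 without animal 33). All other counts of called members within regions were 0 under the alternatives run.

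For NAc minus PFC the 39 called members were 39 with no replicate block (18 higher, 21 lower), 39 with RLE scaling, 40 with limma-voom, 39 of 46 under the stricter filter, and from 37 to 41 when limma-voom left out each animal, an alternative added after seeing the data. Leaving out animals in edgeR was not run. Of Psmb8, Psmb9, Psmb10, Psme1 and Psme2, the block changed the call of Psmb9 alone (log2 fold change -0.20 without it).

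The correlations with the interferon-response score lost p below 0.05 among XX libraries for Psmb8 in the NAc (r = 0.39), Psmb9 in the NAc (0.33) and PFC (0.32), and Psme1 (0.31) and Psme2 (0.36) in the NAc, and that of Psme2 in the PFC reversed (-0.083). Without the 2 farthest libraries Psme1 in the NAc (0.19) and Psme2 in the PFC (0.15) lost it. Principal transcript length, also added later, moved the Psmb8 share of Psmb5 to 4.41% in the NAc and 4.19% in the PFC, and the Psmb10 share of Psmb7 to 8.66% and 20.4%. The cause of these changes was not tested.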
